A study of Mus musculus with 24 samples.

Results

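The 39 mouse Hox genes whose names give a cluster letter from a to d and a paralogue number are the subject here, out of 55341 gene entries in the deposited count table. They were chosen by name alone. Cluster A holds 11 of them, cluster B 10, cluster C 9 and cluster D 9. RNA was sequenced from 3134 cells, a mouse mammary adenocarcinoma line, after depletion of ribosomal RNA. Every line carried a hairpin against NIPBL that 1 mM IPTG switched on over 3 days, and the labels name no cells without it. NIPBL loads the cohesin ring onto DNA and drives its extrusion of chromatin loops. Into this line the C1, C2 or C1-C2 mutant of NIPBL, wild-type NIPBL or an empty vector had been inserted with piggyBac, and the labels do not say what the mutants change. The groups with IPTG were C1, C2, C1-C2, wild type and empty vector. The group without IPTG was the empty-vector line. Each was taken after 2 h with 100 nM dexamethasone, a synthetic ligand of the glucocorticoid receptor, or with ethanol, all in charcoal-stripped serum, which gives 12 groups of 2 libraries. Each construct is represented by 1 line, no group had IPTG without the hairpin, and loss of NIPBL and other effects of IPTG or the hairpin cannot be told apart in comparisons across IPTG. The design text calls the libraries of a group biological replicates without saying that they were separate cultures. The p-values thus measure the spread between such libraries, estimated over all 12 groups together because a group has only 2.

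Hox genes encode homeodomain transcription factors that give body segments their identity along the head-to-tail axis. In mammals they lie in 4 clusters, and genes with the same number in different clusters, called paralogues, descend from a common ancestor. Within a cluster the order on the chromosome follows the order of expression along the body axis, with low numbers in anterior and high numbers in posterior positions, a property known as collinearity. Polycomb proteins keep silent Hox genes silent, Trithorax proteins keep active ones active, and the clusters lie among domains bounded by CTCF and cohesin. Adult cells and cell lines commonly keep a Hox pattern related to their origin, and in the mammary gland paralogue 9 genes are known to act in its growth in pregnancy. Below, paralogues 1 to 4 are called anterior, 5 to 8 central and 9 to 13 posterior.

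The clusters also encode microRNAs, and their mature sequences from RefSeq (GRCm38.p6) are shown because several Hox messages carry matches to them. Capitals mark the seed, bases 2 to 8.
mmu-miR-196a-5p: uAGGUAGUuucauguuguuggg
mmu-miR-196b-5p: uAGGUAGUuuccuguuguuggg
mmu-miR-10a-5p: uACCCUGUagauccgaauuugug
mmu-miR-10b-5p: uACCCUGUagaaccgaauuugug
mmu-miR-615-3p: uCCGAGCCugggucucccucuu
The miR-196 pair shares the seed AGGUAGU and the miR-10 pair the seed ACCCUGU. On the mRNA strand, the 7-base match ACTACCT to the miR-196 seed occurred in the 3′ UTR of 9 of 39 Hox genes (23.08%) and of 6.1% of 21022 genes with an annotated 3′ UTR. The median 3′ UTR lengths were 966 bases in Hox genes and 961 bases in all genes. Among those 9 genes were Hoxa4, Hoxa5, Hoxa7, Hoxa9, Hoxb1, Hoxb6, Hoxb7 and Hoxc8. Hoxa7 held 4 such matches and Hoxc8 held 2. The match ACAGGGT to the miR-10 seed occurred in 4 Hox genes (10.26%) against 12.5% of all genes.

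Hoxb8 lacked the perfect 7-base match but held the Hox 3′ UTR window with the most bases paired to miR-196a-5p over its whole length. In this window of 22 bases, 21 were Watson-Crick pairs, and the other base formed a G:U wobble within the seed. The next best Hox window, in Hoxd8, had 15 pairs. The Hoxb8 window is shown with one of the Hoxa7 windows because both genes had more RNA with IPTG in ethanol. Hoxa4, Hoxa5, Hoxa9, Hoxb6 and Hoxc8 also held the 7-base match and did not pass the test across IPTG in either treatment. Hoxb9, Hoxc5 and Hoxc6 had more RNA with IPTG and lacked this match. A link between matches and RNA level was not tested. Capitals mark bases paired to miR-196a-5p.
Hoxb8 window, chr11:96284888-96284909, plus strand, mm10: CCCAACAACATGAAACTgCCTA
Hoxa7 window, chr6:52215210-52215231, minus strand, mm10: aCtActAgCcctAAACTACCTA
A match describes the sequence only, and small RNAs were not measured. Libraries of total RNA read the precursor loci. Of those named, Mir196a-1 and Mir615 passed the low-count filter and their values stand with the hormone comparison.

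The libraries held 45 to 72.9 M counts in dexamethasone and 32.5 to 42.7 M in ethanol. Library names run in separate blocks by treatment, so any batch effect of library preparation and the effect of the hormone cannot be told apart. Nipbl itself was at 48 to 73.3 CPM in the 20 libraries with IPTG and at 151 to 186 CPM in the 4 without. CPM are counts scaled to library size with TMM factors. With IPTG, Nipbl was at 55.1 to 70.4 CPM in wild type, 54.4 to 65.1 CPM in empty vector and 48 to 73.3 CPM in the mutants. These ranges overlapped, so the Nipbl counts do not show whether an inserted construct was expressed. Per1, a rapid glucocorticoid target, was at 269 to 308 CPM in all 12 libraries grouped as dexamethasone and at 22.2 to 26.6 CPM in the 12 grouped as ethanol. Replicate 2 of C1-C2 in ethanol carries a treatment label of dexamethasone against its title, and it was grouped by the title. Per1 in this library was at 24.4 CPM, within the range of the other ethanol libraries. The chi-square per degree of freedom between the libraries of a group was highest in wild-type NIPBL given dexamethasone (20.8) and lowest in C1-C2 given dexamethasone (5.46). High-GC genes read 0.064 to 0.293 higher than low-GC genes in the dexamethasone libraries on the log2 scale, and -0.283 to -0.138 in ethanol. Of 5 luminal epithelial markers only Krt8 passed the filter, and the list summed to 0.449 to 0.902 CPM. The 5 mesenchymal markers summed to 6610 to 8790 CPM, led by Vim, Fn1 and Col1a2, while Col1a1 had a median of 1.01 CPM. The 3 basal markers summed to 13.7 to 22.1 CPM, almost all of it Krt14 (median 17.8 CPM). Krt5 had 6 counts over all libraries and Trp63 a median of 0.207 CPM. The defining luminal markers Epcam and Cdh1 were thus at or near 0 in a line labelled mammary adenocarcinoma. In bulk RNA, fewer cells of a type and less RNA per cell cannot be told apart.

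All 9 members of cluster C gave RNA above the filter, but only 2 of 9 members of cluster D did. The filter asked for about 10 counts in at least 2 libraries, and 27 of the 39 genes passed it. Together the Hox genes took 134 to 165 CPM per library. Cluster B supplied 51% of all Hox counts, cluster C 32.6%, cluster A 15.9% and cluster D 0.487%. These shares are not scaled by length, and that of cluster B leans heavily on Hoxb9. Hoxb9 alone had 41225 counts over all libraries, against 15169 for Hoxc13, the member with the next highest count. Cluster B summed to 66.4 to 84.7 CPM, cluster C to 41.8 to 57.7 CPM, cluster A to 21.1 to 26.0 CPM and cluster D to 0.467 to 1.04 CPM, so the ranges of the 4 clusters over 24 libraries did not overlap. Hoxa11, Hoxa13, Hoxd1, Hoxd8, Hoxd9, Hoxd10 and Hoxd11 had 0 counts in all 24 libraries. A count of 0 allows up to 0.0419 to 0.0900 CPM in a single library, taking 3 counts as the limit, which covers counting error only. Over all libraries Hoxb1 had 1 count, Hoxd12 had 2 and Hoxd13 had 8. The remaining untested members were Hoxb7 with 66 counts and Hoxb2 with 121.

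**Figure D1:**
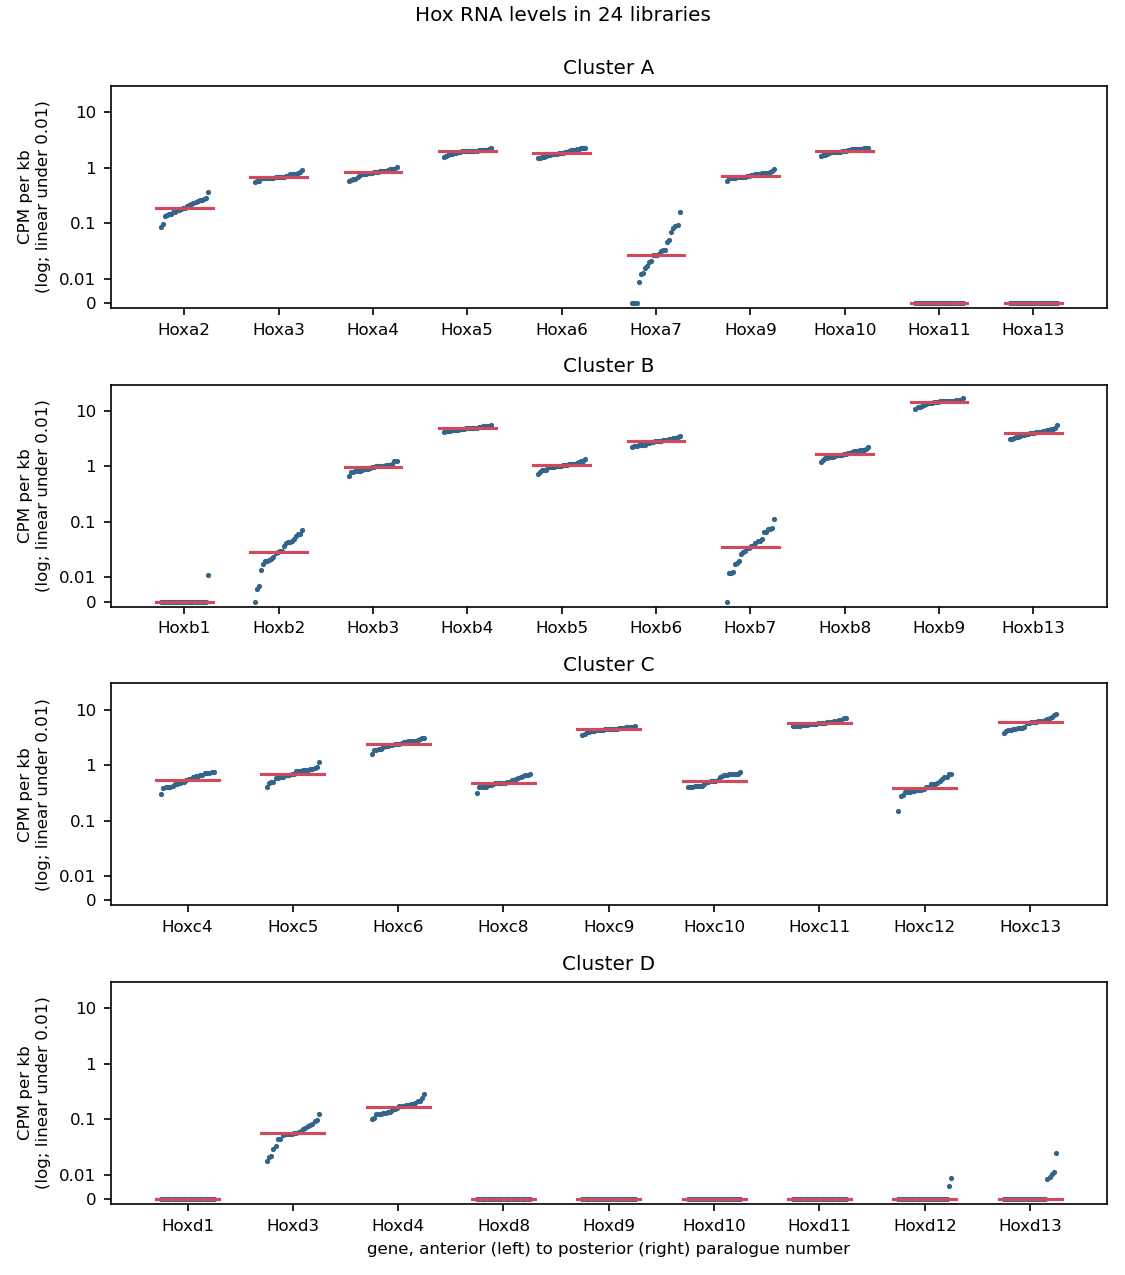
CPM per kilobase of gene model (log axis, linear under 0.01) of the Hox genes reported here, by cluster and paralogue number; each point is 1 of 24 libraries, sorted by value within a gene, and the red line is the median. Hoxb9 is highest with a median of 14.8 CPM per kb, and in cluster D Hoxd3 and Hoxd4 alone have a median above 0.

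Hoxb9 had the highest level of any member per length, with a median of 14.8 CPM per kb over the 24 libraries. Hoxc13 followed at 5.94 CPM per kb, Hoxc11 at 5.76, Hoxb4 at 4.88, Hoxc9 at 4.43 and Hoxb13 at 4.03. Hoxc13 ranged from 3.82 to 8.21 CPM per kb and Hoxc11 from 5.01 to 7.14, so these neighbours in the order overlapped, whereas Hoxb9 (11 to 17.1) overlapped neither. Of the 6 genes with the highest medians 5 were posterior, the exception being Hoxb4. HOXB13 and HOXC13 are known for roles in the prostate and in hair and nails. The lowest tested members were Hoxd4 (0.164 CPM per kb), Hoxd3 (0.0558) and Hoxa7 (0.0269). By paralogue number, level was not graded along the axis. Paralogue 9 genes summed to 20 CPM per kb (median; range 15.1 to 22.1), paralogue 13 to 9.66 (8.10 to 12.9), paralogue 6 to 6.94 (5.68 to 8.57), paralogue 4 to 6.32 (5.54 to 7.23) and paralogue 11 to 5.76 (5.01 to 7.14). Between these lay low points, at paralogue 7 with 0.0748 CPM per kb (0 to 0.176), paralogue 2 with 0.212 (0.115 to 0.407) and paralogue 12 with 0.389 (0.151 to 0.697).

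Some values could hold reads of a neighbour, since the counting options were not stated. Hoxd3 and Hoxd4 share 62.35% and 52.31% of their exon bases with each other or Gm28230 on the same strand, so their counts are uncertain as single genes. Hoxc5 and Hoxc10 share 166 exon bases. Antisense genes overlap, among others, Hoxa3, Hoxa4, Hoxa7 (Hoxaas3), Hoxb2 and Hoxb3 (Hoxb3os), Hoxb5 (Hoxb5os), Hoxd3 and Hoxd4 (Hoxd3os1), and reads of such pairs cannot be told apart unless strand was used.

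With IPTG, empty-vector cells had more RNA of Hoxb9, Hoxc5 and Hoxc6 and less of Hoxc13 than without, both in ethanol and in dexamethasone. These comparisons set lowered Nipbl, together with any other effect of IPTG or the hairpin, against cells without IPTG. In ethanol 6 of 27 tested Hox genes (22.2%) were called at an adjusted p under 0.05, where 13.4% of all 16934 tested genes were. The 5 higher (background 7.16%) were Hoxa7, Hoxb8, Hoxb9, Hoxc5 and Hoxc6, and the 1 lower (background 6.24%) was Hoxc13. In dexamethasone 5 of 27 (18.5%) were called against a background of 16.9%, with Hoxd3, Hoxb9, Hoxc5 and Hoxc6 higher (background 8.36%) and Hoxc13 lower (background 8.49%). Hoxa7 and Hoxd3 passed the filter only through libraries with IPTG, so their calls cannot be set against the background. Without both genes the counts were 5 of 25 (20%) in ethanol and 4 of 25 (16%) in dexamethasone, the second just under its background. The median log2 fold change of the tested Hox genes was 0.24 in ethanol (21 above 0, 6 below) and -0.01 for all genes. In dexamethasone it was 0.18 (19 above 0, 8 below) and 0 for all genes.

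Hoxb9 lies at chr11:96271457-96276595 on the plus strand (mm10). It was at 40.1 and 39.8 CPM with IPTG in ethanol, against 30.3 and 31.6 CPM without IPTG. The dexamethasone libraries had 38.4 and 38.6 CPM with IPTG, against 30 and 28.4 CPM without. In both treatments both libraries with IPTG lay above both without, by more than the spread between replicates. The fold change was 1.29 in ethanol (log2 0.37 ± 0.06 SE, adjusted p = 0.000103, edgeR) and 1.32 in dexamethasone (log2 0.40 ± 0.06, adjusted p = 1.97e-05). HOXB9 belongs to the paralogue group known for the mammary gland's growth in pregnancy in mice.

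Hoxb8 (chr11:96281905-96285315) is the next expressed gene beside Hoxb9 in cluster B and is known in mice for roles in blood progenitors and microglia. It had 5.57 and 5.85 CPM with IPTG in ethanol, against 3.22 and 3.85 CPM without, a 1.62-fold rise (log2 0.70 ± 0.15 SE, adjusted p = 0.00165). Without replicate 1 of the ethanol group lacking IPTG, the adjusted p was 0.0636. In dexamethasone Hoxb8 had 4.06 and 5.10 CPM with IPTG, against 3.78 and 3.43 CPM without. Both libraries with IPTG were again the higher ones, but the adjusted p was 0.0884. The change of the knockdown effect with dexamethasone was not called for any Hox gene (0 of 27, against 0.171% of all genes, 0 at an unadjusted p under 0.05 with edgeR, 0 called by DESeq2), so the treatments are not shown to differ.

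In cluster C, Hoxc5 and Hoxc6 lie side by side. Hoxc6 (chr15:102998257-103011881) had 7.16 and 7.38 CPM with IPTG in ethanol, against 4.67 and 4.55 CPM without. In dexamethasone it had 5.53 and 6.69 CPM with IPTG, against 3.82 and 4.42 CPM without. The groups did not overlap in either treatment, with fold changes of 1.57 (adjusted p = 0.00173) and 1.48 (adjusted p = 0.00405). The dexamethasone call was lost without replicate 1 of the group lacking IPTG or without replicate 2 of the group with IPTG, with adjusted p up to 0.117.

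Hoxc5 (chr15:102967443-103017429, a span that includes Hoxc6 and further members) had 3.57 and 2.46 CPM with IPTG in ethanol, against 1.49 and 1.52 CPM without. The dexamethasone libraries had 2.08 and 2.52 CPM with IPTG, against 1.22 and 1.78 CPM without. Fold changes were 2.01 (log2 1.01 ± 0.22 SE, adjusted p = 0.00228) and 1.52 (log2 0.60 ± 0.21, adjusted p = 0.0488). The ethanol call was lost without replicate 1 of the IPTG group (adjusted p = 0.101). In dexamethasone 6 of 12 alternatives lost it, RLE factors and DESeq2 among them, with adjusted p up to 0.37. Their anterior neighbour Hoxc4 had 1.72 and 1.74 CPM with IPTG in ethanol, against 1.00 and 1.40 CPM without, and was not called (log2 0.54 ± 0.31).

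Hoxc13 (chr15:102921103-102928814), at the other end of cluster C, went the opposite way to Hoxc5 and Hoxc6. It is best known for hair and nail formation. It had 14.9 and 15 CPM with IPTG in ethanol, against 19.7 and 20.2 CPM without. In dexamethasone it had 11.3 and 10.4 CPM with IPTG, against 14.1 and 14.4 CPM without. It was lower in every library with IPTG than in either library without, within each treatment. The fall was 1.34-fold in ethanol (log2 -0.42 ± 0.08 SE, adjusted p = 0.0012) and 1.31-fold in dexamethasone (log2 -0.39 ± 0.08, adjusted p = 0.00181). Without replicate 2 of the IPTG group in dexamethasone the adjusted p in dexamethasone was 0.0533. Along cluster C in ethanol the log2 fold changes were 0.54 for Hoxc4, 1.01 for Hoxc5, 0.66 for Hoxc6, 0.24 for Hoxc8, 0.31 for Hoxc9, 0.22 for Hoxc10, 0.21 for Hoxc11, -0.06 for Hoxc12 and -0.42 for Hoxc13. Only the Hoxc5, Hoxc6 and Hoxc13 values passed the test, and a gradient along the cluster was not tested.

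**Figure D2:**
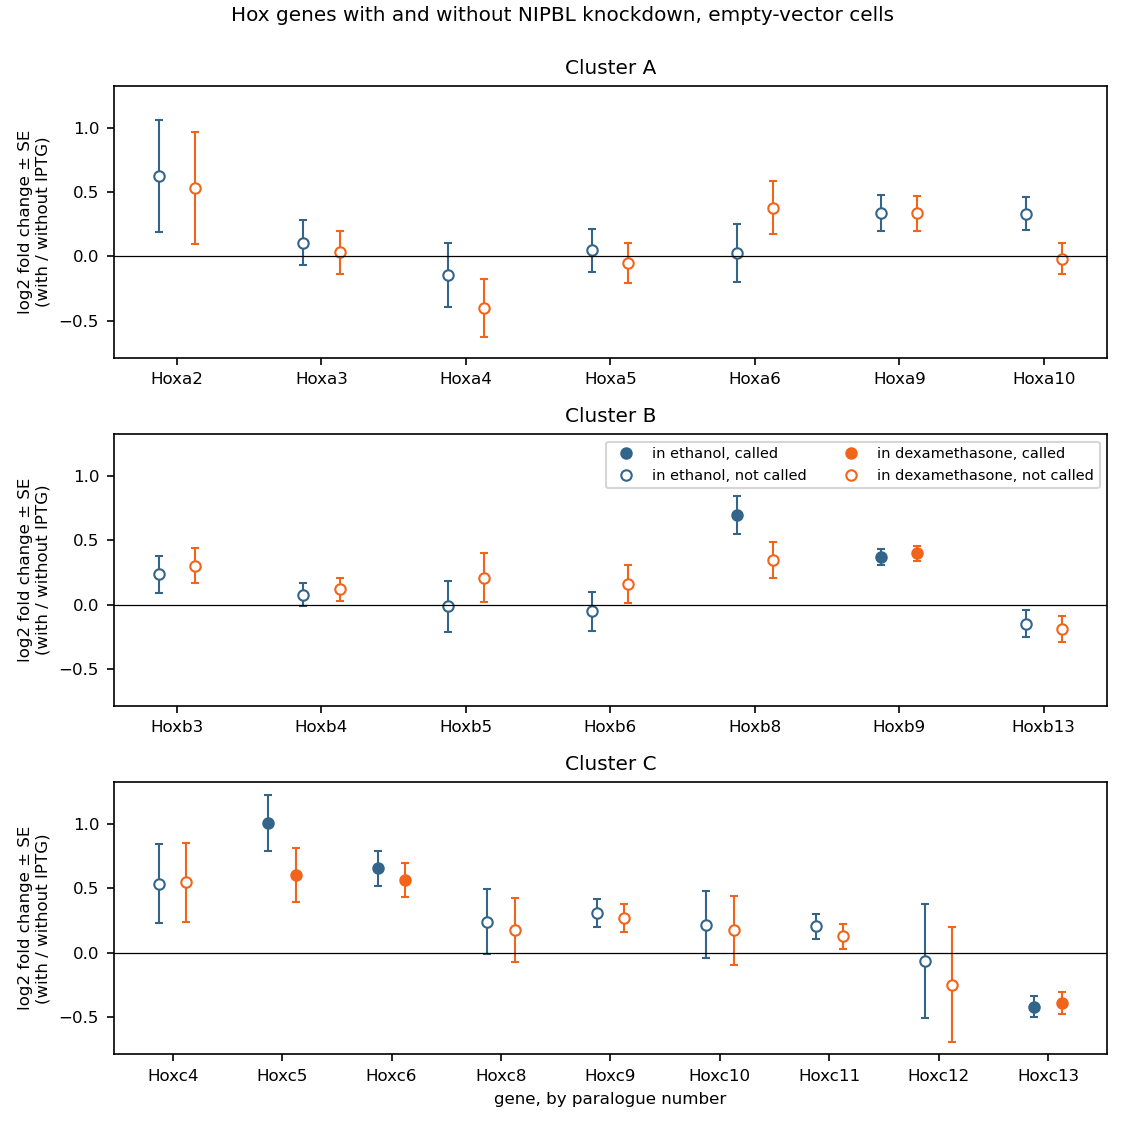
Log2 fold change ± SE of cells with over cells without IPTG (empty vector) for the tested genes reported of clusters A to C in ethanol (blue) and dexamethasone (orange); filled points are called at an adjusted p under 0.05, and Hoxa7, with 0 counts in a group, is left out. Hoxc5 and Hoxc6 lie above 0 and Hoxc13 below 0 in both treatments.

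Hoxa7 and Hoxd3 were near the limit of detection. Both passed the filter only through libraries with IPTG, so their adjusted p is no independent evidence of a rise with IPTG. Hoxa7 (chr6:52214491-52221854, minus strand) had 10 and 15 counts with IPTG in ethanol and 0 counts in both libraries without. The ratio to a floor of 3 counts over the group without IPTG was 8.82. From the 25 counts against 0, the lower limit of the exact 95% interval was 6.66-fold. This limit covers counting error alone and leaves out the spread between libraries. The adjusted p from edgeR was 0.00247. The dexamethasone libraries had 3 and 13 counts with IPTG, against 0 and 2 counts without, a ratio of 8.08 with a 95% exact interval from counting alone of 1.90 to 72.5, and it was not called. Hoxd3 (chr2:74711927-74748442) had 19 and 12 counts with IPTG in dexamethasone, against 4 and 4 without, a ratio of 3.92 (95% exact counting interval 1.76 to 9.86; adjusted p = 0.0223, lost in 3 of 10 alternatives). In ethanol it had 13 and 8 counts with IPTG, against 6 and 3 without, and was not called. The filter left out Hoxb2, which had 12 counts with IPTG, against 2 without, in ethanol and 7 against 5 in dexamethasone, too few to test here.

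By cluster, cluster A had no called member in dexamethasone and Hoxa7 alone in ethanol. Its other tested members differed by -0.15 (Hoxa4) to 0.62 (Hoxa2) on the log2 scale in ethanol. The paralogue 9 and 10 genes Hoxa9 and Hoxa10 had log2 fold changes of 0.33 ± 0.14 and 0.33 ± 0.13 in ethanol, with adjusted p of 0.126 and 0.0966, and were not called. In cluster B the other 5 tested genes were not called, and Hoxb13 had log2 fold changes of -0.15 and -0.19. By position, 4 of 9 central genes were called in ethanol, against 2 of 9 posterior and 0 of 9 anterior genes, with medians of 0.24, 0.22 and 0.25. Hoxa7 was among these 4. In dexamethasone 2 of 9 central, 2 of 9 posterior and 1 of 9 anterior genes were called, the anterior one being Hoxd3. The shares over all genes were 13.4% in ethanol and 16.9% in dexamethasone, and a difference between positions was not tested. The called members differed in direction within the posterior class, where Hoxb9 was higher and Hoxc13 lower.

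Cells with wild-type NIPBL and IPTG differed from cells without IPTG at Hoxb9, Hoxc5, Hoxc6 and Hoxc13. Here 8 of 27 Hox genes (29.6%) were called where 16.6% of all genes were, 6 higher (background 7.23%) and 2 lower (background 9.36%). One of the 6 was Hoxd3, and without it and Hoxa7 the counts were 7 of 25 (28%) called and 5 higher (20%). Each side of the comparison has 4 libraries of both treatments. The cells without IPTG were the empty-vector line. Line and inserted construct thus differ along with IPTG, and their effects cannot be told apart. Hoxb9 was at 33.8 to 37.7 CPM in the wild-type cells, against 28.4 to 31.6 CPM without IPTG. These ranges did not overlap, and the fold change was 1.19 (log2 0.25 ± 0.04 SE, adjusted p = 0.000134). Hoxc6 was at 5.26 to 6.84 CPM in wild-type cells, against 3.82 to 4.67 CPM (1.43-fold, adjusted p = 0.000486), and Hoxc5 at 2.07 to 2.65 CPM, against 1.22 to 1.78 CPM (1.61-fold, adjusted p = 0.00238). Neither pair of ranges overlapped.

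Hoxb3 and Hoxc4, both anterior, were called higher with wild-type NIPBL and IPTG, at 1.26-fold (adjusted p = 0.0194) and 1.66-fold (adjusted p = 0.019). Hoxb3 was at 3.86 to 4.57 CPM, against 2.85 to 3.81 CPM without IPTG, and Hoxc4 at 1.27 to 1.91 CPM, against 0.778 to 1.40 CPM. The Hoxc4 ranges overlapped, the Hoxb3 ranges did not, and both calls were lost when certain single libraries were left out (5 of 16 alternatives for Hoxb3, 3 of 16 for Hoxc4). Hoxd3 was called as well at 0.225 to 0.521 CPM, against 0.0725 to 0.140 CPM without IPTG. Lower were Hoxc13 (log2 -0.31 ± 0.06, adjusted p = 0.000595) and Hoxb13 (log2 -0.40 ± 0.07, adjusted p = 0.000459). Hoxb13 was at 7.29 to 8.75 CPM in wild-type cells, against 8.64 to 12.5 CPM, and Hoxc13 at 10.5 to 17.3 CPM, against 14.1 to 20.2 CPM. Both pairs of ranges overlapped, since they span the treatments.

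Set directly against empty vector, both with IPTG, wild-type NIPBL gave few called Hox genes. The comparison called 2 of 27 Hox genes (7.41%), near the background of 8.65%. Among the 2 was Hoxa7, which passed the filter through empty-vector and C1 libraries with IPTG and not through wild type. Its call cannot be set against the background, and without Hoxa7 and Hoxd3 the count was 1 of 25 (4%). Hoxb9 was at 33.8 and 36.1 CPM with wild-type NIPBL in dexamethasone, against 38.4 and 38.6 CPM with empty vector. In ethanol it was at 35.1 and 37.7 CPM with wild-type NIPBL, against 40.1 and 39.8 CPM with empty vector. The groups did not overlap, but the difference was 1.10-fold (log2 -0.14 ± 0.04 SE, adjusted p = 0.0356) and was lost in 8 of 16 alternatives. Hoxa7 had 7 counts over both dexamethasone libraries with wild-type NIPBL, against 16 with empty vector, and 5 over both ethanol libraries, against 25. Its adjusted p was 0.0448, lost in 6 of 14 alternatives. Hoxc5 and Hoxc6 were not called (log2 -0.12 ± 0.14 and -0.10 ± 0.09), nor was Hoxc13 (log2 0.10 ± 0.06). This comparison and the knockdown comparisons share the empty-vector libraries with IPTG.

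Against empty vector no Hox gene was called in the mutants, but the call of Hoxc5 in C2 depended on the fit. In C1 0 of 27 were called where 1.43% of all genes were called, in C2 0 where 3.87% were, and in C1-C2 0 where 0.437% were. At an unadjusted p under 0.05 there were 6, 4 and 2 Hox genes with edgeR, and DESeq2 also called 0 in each comparison. The median log2 difference of the tested Hox genes was -0.14 in C1 (7 above 0, 20 below) and -0.12 in C2 (5 above 0, 22 below). In C1-C2 it was -0.09 (3 above 0, 24 below), and in wild type -0.01 (13 above 0, 14 below). All of these share the empty-vector libraries with IPTG, and the shift was not tested. The smallest adjusted p was that of Hoxc5 in C2 (0.063). It had 1.91 and 1.5 CPM with C2 in dexamethasone, against 2.08 and 2.52 CPM with empty vector, and 2.10 and 2.05 CPM with C2 in ethanol, against 3.57 and 2.46 CPM. In each treatment both C2 libraries were below both empty-vector libraries, with a log2 difference of -0.48 ± 0.15. With a replicate block Hoxc5 was called (adjusted p = 0.0343, and 0.0395 with the block within treatment), as it was with no filter (0.0421) and without replicate 2 of empty vector in ethanol (0.0448) or replicate 1 of C2 in dexamethasone (0.0484). Over the 16 alternatives its adjusted p ran from 0.0343 to 0.338. Against wild-type NIPBL, 0 of 27 were called in C1 (background 9.66%, 1 at an unadjusted p under 0.05 with edgeR). In C1-C2 0 were called (background 4.86%, 2 at an unadjusted p under 0.05 with edgeR), and DESeq2 called 0 in both. C2 against wild type called Hoxb9 alone (background 12.9%). It was at 40.2 and 39.9 CPM with C2 in dexamethasone, against 33.8 and 36.1 CPM with wild type. In ethanol it was at 43.9 and 39.8 CPM with C2, against 35.1 and 37.7 CPM with wild type. The difference of 1.15-fold (log2 0.20 ± 0.04, adjusted p = 0.00224) held in all 16 alternatives. C2 libraries lay above wild-type libraries in both treatments.

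**Figure D3:**
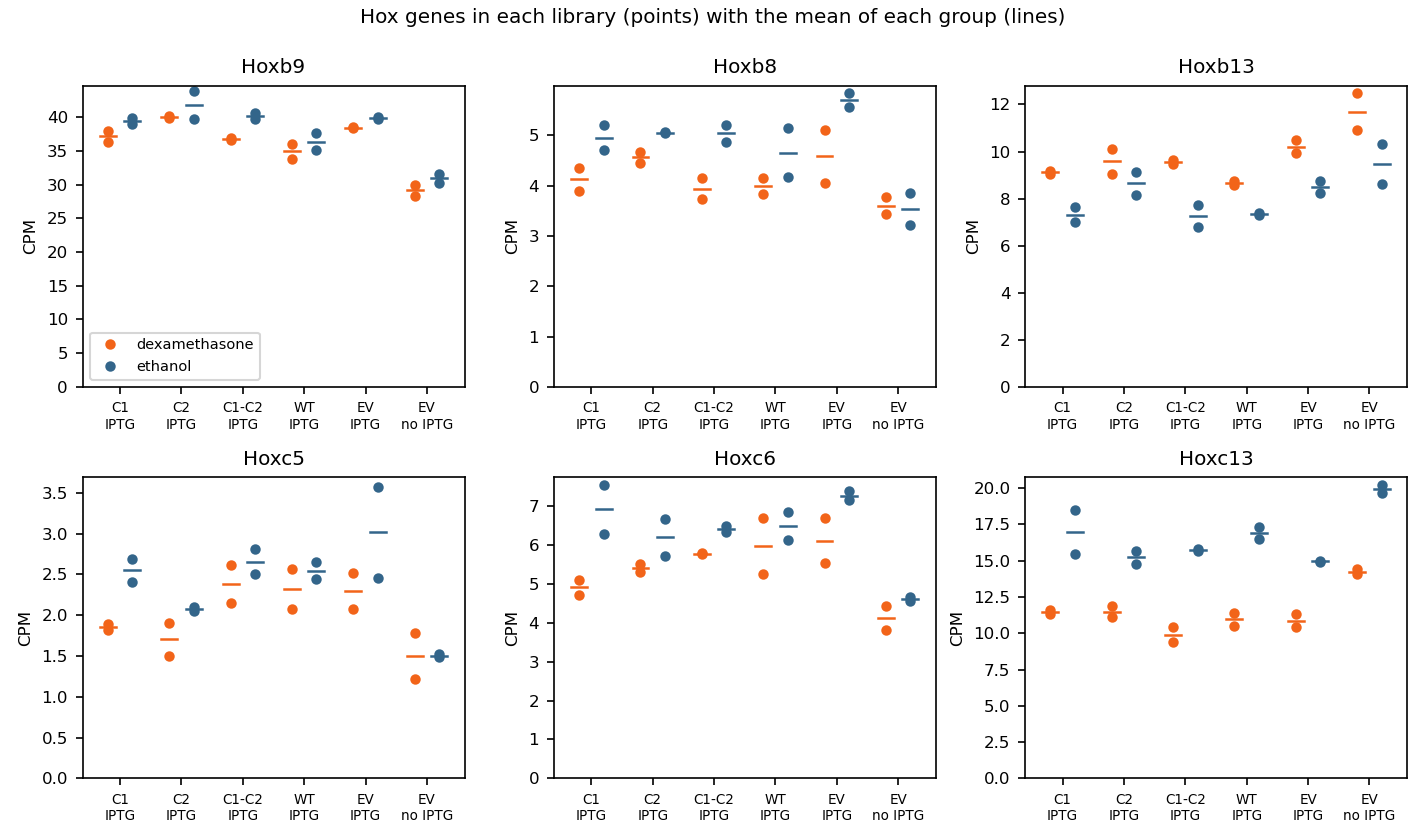
CPM of 6 Hox genes in each library (points) with the mean of the 2 libraries of a group (lines), dexamethasone in orange and ethanol in blue, for the NIPBL constructs with IPTG and the empty vector with and without IPTG. Hoxb9 sits between 33.8 and 43.9 CPM in all libraries with IPTG and between 28.4 and 31.6 CPM in those without.

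After 2 h of dexamethasone Hoxc13 was lower in cells with and without IPTG. In cells with IPTG most called Hox genes of clusters B and C were lower too, while Hoxb13 was higher. In cells with IPTG, over the 5 constructs, 15 of 27 Hox genes (55.6%) were called, near the background of 59.7%. Of these 2 were higher (7.41%, background 31.3%) and 13 lower (48.1%, background 28.4%). The median log2 fold change was -0.18 over the Hox genes (5 above 0, 22 below) and 0.02 over all genes. Cluster C had 6 of 9 genes called lower and 0 higher with a median of -0.25, cluster B 5 lower and 1 higher of 7 (median -0.13), cluster A a median of -0.03 over 9 genes and cluster D 1 lower of 2. By position the medians were all -0.18. With a smooth trend of GC content and length removed from each library the counts were 1 higher and 18 lower.

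Hoxc13 had the smallest adjusted p of the Hox genes. In the 10 dexamethasone libraries with IPTG it ranged from 9.40 to 11.9 CPM with a median of 11.2, against 14.8 to 18.5 CPM with a median of 15.7 in the 10 ethanol libraries. The ranges did not overlap, and the fall was 1.46-fold (log2 -0.55 ± 0.04 SE, adjusted p = 3.74e-12). By line, the log2 differences were -0.57 in C1, -0.41 in C2, -0.67 in C1-C2, -0.63 in wild type and -0.46 in empty vector with IPTG. Cells without IPTG had 14.1 and 14.4 CPM in dexamethasone, against 19.7 and 20.2 CPM in ethanol, a 1.40-fold fall (log2 -0.49 ± 0.08, adjusted p = 3.87e-05). With the GC trend removed the falls were -0.71 and -0.68 on the log2 scale.

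The other 12 genes called lower with IPTG differed by 1.06-fold in Hoxb9 to 1.52-fold in Hoxd4, and their ranges overlapped between treatments. Hoxb3 was at 3.37 to 4.34 CPM (median 3.82) in dexamethasone, against 4.28 to 5.41 CPM (median 4.53) in ethanol (1.22-fold, adjusted p = 0.000246). Hoxc11 was at 10.1 to 11.8 CPM (median 10.9) in dexamethasone, against 11.8 to 14.4 CPM (median 12.7) in ethanol (1.19-fold, adjusted p = 1.58e-05). Both were lower in dexamethasone in each of the 6 lines and states. Hoxc8 was at 0.889 to 1.75 CPM (median 1.24), against 1.32 to 1.92 CPM (median 1.64) in ethanol, and Hoxc6 at 4.72 to 6.69 CPM (median 5.52), against 5.73 to 7.55 CPM (median 6.59). Hoxb4 was at 11.2 to 12.9 CPM (median 12.3) in dexamethasone, against 11.2 to 14.4 CPM (median 13.3) in ethanol. Hoxa9 was at 3.61 to 4.68 CPM (median 3.85), against 3.88 to 5.22 CPM (median 4.48), and Hoxb9 at 33.8 to 40.2 CPM (median 37.4), against 35.1 to 43.9 CPM (median 39.8). Medians of Hoxb4, Hoxa9 and Hoxb9 were lower in dexamethasone by less than the width of the ranges. Hoxb6 was at 4.46 to 6.42 CPM (median 5.02), against 4.71 to 7.11 CPM (median 5.83) in ethanol, and Hoxb8 at 3.73 to 5.10 CPM (median 4.16), against 4.17 to 5.85 CPM (median 5.10). In cluster C, Hoxc5 was at 1.5 to 2.62 CPM (median 2.08), against 2.05 to 3.57 CPM (median 2.48) in ethanol, and Hoxc10 at 0.790 to 1.30 CPM (median 0.895), against 0.769 to 1.41 CPM (median 1.25). Hoxd4 was at 0.301 to 0.500 CPM (median 0.370), against 0.427 to 0.832 CPM (median 0.563). The Hoxb4 call was lost in 1 of 29 alternatives, the move of the C1-C2 library with disagreeing labels, whose Per1 was at the ethanol level. Hoxc10 and Hoxb6 calls were lost in 7 and 3 of 29 alternatives, that move among them. The Hoxc8 call was lost in 1 of 29, with the GC and length trend removed and a replicate block within treatment.

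Hoxb13 was at 8.58 to 10.5 CPM (median 9.32) with IPTG in dexamethasone, against 6.80 to 9.15 CPM (median 7.69) in ethanol, a 1.21-fold rise (adjusted p = 1.55e-05). Without IPTG it had 12.5 and 10.9 CPM in dexamethasone, against 8.64 and 10.3 CPM in ethanol (1.24-fold, edgeR adjusted p = 0.019). The call without IPTG was lost in 4 of 12 alternatives, the omission of certain single libraries among them, with log2 fold changes from 0.10 to 0.43. With the GC and length trend removed, Hoxb13 was not called in either state (log2 0.10 ± 0.05 with IPTG, adjusted p = 0.0671, and 0.10 ± 0.10 without, adjusted p = 0.544). The tested Hox genes have a median GC content of 53.5% (45.3% to 62.3%), and all tested genes 49.0%.

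Without IPTG 3 of 27 Hox genes (11.1%) were called against a background of 38.0%, with Hoxb13 among the 2 higher (background 19.8%) and Hoxc13 lower (background 18.2%). There were 2 libraries a side here, so fewer calls than with IPTG do not show a smaller response. With the GC and length trend removed the calls were 0 higher and 5 lower (Hoxb3, Hoxb4, Hoxb9, Hoxc11 and Hoxc13). Whether the wild-type effect depended on the hormone was tested as well, and 0 of 27 Hox genes were called (0.0118% of all genes, 0 at an unadjusted p under 0.05 with edgeR, 0 by DESeq2).

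**Figure D4:**
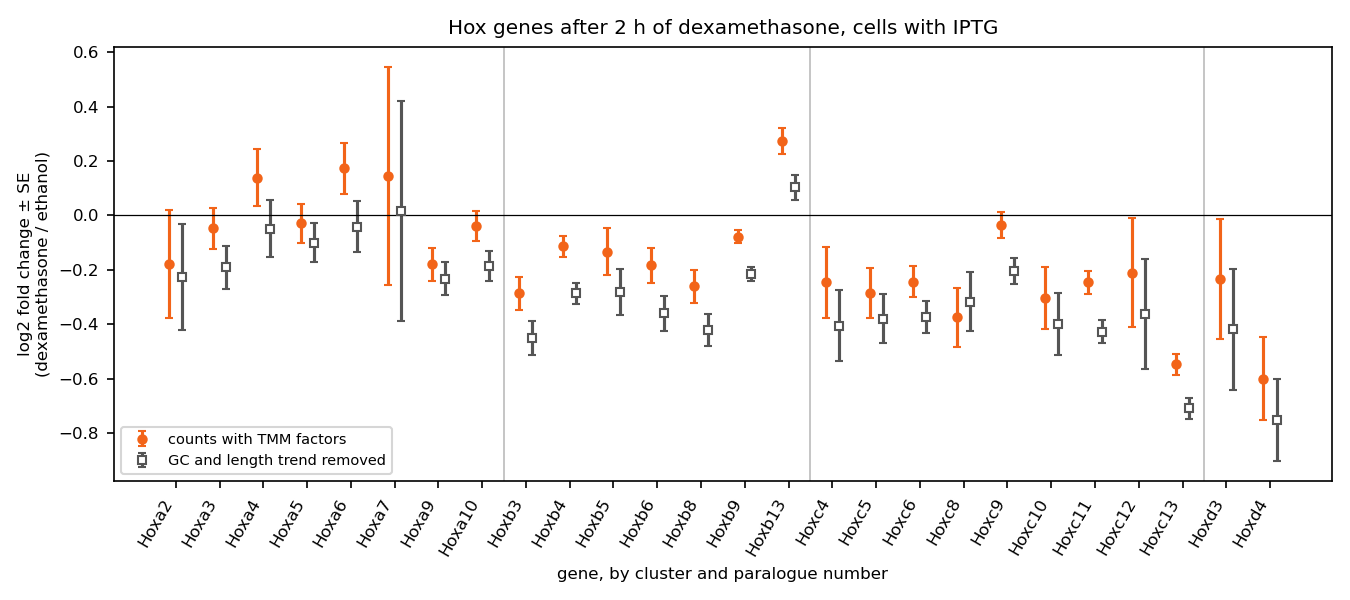
Log2 fold change ± SE of dexamethasone over ethanol in cells with IPTG (10 libraries each) for the tested Hox genes reported, by cluster, from counts with TMM factors (orange) and after removal of a trend of GC content and length (grey). Hoxc13 lies at -0.55 and -0.71, and Hoxb13 at 0.27 and, with the trend removed, 0.10.

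Partners and regulators of the Hox genes mostly did not pass the test across IPTG. The cofactors of the PBX, MEIS and PKNOX families, which bind DNA together with HOX proteins, were all tested, and 0 of 9 were called in either knockdown comparison. Over all genes 13.4% were called in ethanol (7.16% higher, 6.24% lower) and 16.9% in dexamethasone (8.36% higher, 8.49% lower). Of 21 Polycomb genes, 0 were called higher and 2 lower in ethanol, and 1 higher and 2 lower in dexamethasone. Mtf2, which brings Polycomb repressive complex to CpG-rich DNA, was among the lower ones in both. It had 40.5 and 37.1 CPM with IPTG in ethanol, against 57.2 and 52.6 CPM without, and 40.0 and 40.2 CPM in dexamethasone, against 57.7 and 54.7 CPM without. No library with IPTG and empty vector reached the level of the libraries without IPTG, with falls of 1.42-fold (adjusted p = 2.96e-05) and 1.40-fold (adjusted p = 2.27e-05). With wild-type NIPBL, Mtf2 was 1.19-fold higher than with empty vector (adjusted p = 0.00249). Ezh2, the histone methyltransferase of that complex, was lower with IPTG in ethanol by -0.24 on the log2 scale (adjusted p = 0.027). Rybp was 1.40-fold higher and Kdm2b 1.13-fold lower in dexamethasone. Any part of these changes in the Hox values was not tested.

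Of 12 Trithorax and activating genes, 1 was called higher (Men1, 1.17-fold) and 2 lower (Wdr5, 1.22-fold, and Dot1l, 1.29-fold) with IPTG in ethanol. In dexamethasone 0 were higher and the same pair was lower (1.21-fold and 1.33-fold). For this and the other lists across IPTG, the shares called over all genes were 13.4% in ethanol and 16.9% in dexamethasone. Whether a list differed from its share was not tested. Among 8 upstream regulators 4 were tested, and Rarg, a retinoic acid receptor, was 1.26-fold higher in ethanol. Of 13 genes flanking the clusters 9 were tested. In ethanol Calcoco1 was 1.42-fold higher, and Ttll6 and Smug1 were 1.52-fold and 1.22-fold lower. In dexamethasone 0 were called across IPTG. Calcoco1 and Smug1 lie beyond the ends of cluster C and Ttll6 beyond Hoxb13. Of 18 non-coding RNAs of the clusters 5 passed the filter, and 0 of these 5 were called across IPTG in either treatment.

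With IPTG, 3 of the 5 tested non-coding RNAs were called lower in dexamethasone than in ethanol, where 28.4% of all genes were. Without IPTG 0 of the 5 were called (edgeR, 1 at an unadjusted p under 0.05). Hotair, transcribed antisense between Hoxc11 and Hoxc12, was 1.40-fold lower (edgeR, adjusted p = 0.00779). The Mir196a-1 locus between Hoxb9 and Hoxb13, at 0.4 to 1.46 CPM, was 1.29-fold lower (adjusted p = 0.0342). The Mir615 locus within Hoxc5 was 3.05-fold lower (adjusted p = 0.000805). Mir615 had 103 counts over 24 libraries, at 0 to 0.248 CPM with a median of 0.082, near the limit of 3 counts a library. Its highest level was close to the 0.228 CPM of the filter. Its call, and so the 3 of 5, cannot be set against the background. Reads at such loci belong to host or precursor transcripts. Lnpk, a flank of cluster D, was 1.42-fold lower (adjusted p = 7.73e-15). Among the 9 cofactors 3 were called higher and 2 lower, among them Meis1 by 1.26-fold. These 5 of 9 stand near the background of 59.7%.

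Promoter sequence was available from RefSeq (GRCm38.p6) for 22 Hox genes with 24 starts, not counting Hoxb9, Hoxc5, Hoxc6 and Hoxc13. Upstream of these starts the median number of CG dinucleotides was 12.5, against 6 over all 32851 promoters of the same length. The stretches before Hoxb8, called higher with IPTG in ethanol, and before Hoxc4, called higher with wild-type NIPBL and IPTG, are printed with CG in capitals.
Hoxb8 promoter, chr11:96281655-96281904, plus strand: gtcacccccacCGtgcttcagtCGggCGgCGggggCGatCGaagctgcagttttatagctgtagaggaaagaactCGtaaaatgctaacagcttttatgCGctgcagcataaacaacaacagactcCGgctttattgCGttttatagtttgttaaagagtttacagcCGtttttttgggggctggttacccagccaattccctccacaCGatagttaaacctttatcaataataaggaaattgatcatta
Hoxc4 promoter, chr15:103034145-103034394, plus strand: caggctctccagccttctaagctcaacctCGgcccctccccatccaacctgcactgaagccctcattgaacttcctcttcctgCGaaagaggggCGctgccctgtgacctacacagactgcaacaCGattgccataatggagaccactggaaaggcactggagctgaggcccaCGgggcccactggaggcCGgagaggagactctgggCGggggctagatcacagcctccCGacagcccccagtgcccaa
Hoxb8 held 12 CG and Hoxc4 8. On either strand, TATAAA was found in 16.67% of Hox promoters and 12.37% of all promoters, CCGCCC in 41.67% and 32.74%, and TGATTNAT, a motif of PBX and HOX pairs, in 8.33% and 2.82%. The glucocorticoid receptor's repeat unit AGAACA was in 8.33% of Hox promoters (those of Hoxa9 and Hoxa11) and 16.08% of all, and the full palindromic glucocorticoid response element, searched as an exact inverted repeat of it, in 0 of 24 Hox promoters and 0.01% of all. These are matches in a short window and say nothing about binding.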

How the data were processed

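The deposited table holds the authors' raw counts per gene name for 24 libraries, and the 24 value columns were all used. Per the submitters' processing notes, bcl2fastq 2.20, cutadapt 1.18, STAR 2.7.0f, featureCounts and Subread 2.0.3 were used with mm10. Annotation release, strand setting and treatment of multiply aligned reads are not given in the sources used here. Coordinates and lengths are those of the deposited table, and exon overlaps, 3′ UTRs and GC content came from GENCODE vM21, which holds all 55341 names.

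Libraries were grouped per the labels into 12 groups of 2. Counts were tested with edgeR 4.0.16 (R 4.3.3; robust quasi-likelihood, TMM factors, 1 mean per group, 12 residual degrees of freedom) on 16934 genes kept by its filter, with Benjamini-Hochberg adjustment over all of them and calls at an adjusted p under 0.05. There were 14 comparisons. The method was checked on simulated counts. Members, lists and tests were chosen with earlier results of these data known. Of the 27 tested members 18 were called in at least 1 comparison and 9 in none; values by library, or their range, are given for the called members reported. Alternatives were RLE factors, DESeq2 1.42.0, no filter, a strict filter of 1 CPM in 2 libraries, replicate blocks, removal of a spline trend (5 degrees of freedom) in GC content and length, regrouping of 1 library, and each library left out. CPM per kb was used to compare genes. Values of 1 member and 1 cofactor are not reported here.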

Additional observations from a re-analysis of the deposited data

How the results depend on the processing

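Over the 14 counts of called Hox genes, 201 of 227 alternative values stayed within 1.5 times the main count and 26 did not. The 40 single-gene calls kept their direction in all 770 alternative fits and lost significance in 65. With DESeq2, 3 Hox genes were called for knockdown in dexamethasone (5 with edgeR) and 0 for wild-type NIPBL against empty vector (2 with edgeR). Wild-type NIPBL against empty vector gave 1 with no filter and 1 with the strict filter, and C2 against empty vector gave 1 (Hoxc5) with no filter. With the GC and length trend removed, dexamethasone without IPTG gave 5 calls in place of 3, and dexamethasone with IPTG gave 19 in place of 15. With each library left out in turn, counts ran from 5 to 7 for knockdown in ethanol, 2 to 5 for knockdown in dexamethasone, 0 to 2 for wild-type NIPBL against empty vector, 0 to 1 for C2 against empty vector, 0 to 1 for C1 and 1 to 2 for C2 against wild type, 7 to 9 for wild-type NIPBL with IPTG against no IPTG, 1 to 2 for dexamethasone without IPTG and 13 to 16 with IPTG. The lowest knockdown count in dexamethasone, 2 (Hoxb9 and Hoxd3), came without replicate 2 of empty vector with IPTG, and 3 came without replicate 1 of the cells lacking IPTG. A lone remaining library was assumed to vary like the other groups. The cause of these shifts was not tested.

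The labels do not say that libraries with the same replicate number share a culture or day, so the numbers were not taken as pairs. The correlation of replicate deviations ran from -0.317 to 0.547 over 66 pairs of groups (median 0.159) and was over 0.1 in 38. These were 11 of 15 pairs within ethanol (median 0.264), 6 of 15 within dexamethasone (median 0.055) and 21 of 36 across treatments. On average 11 of 12 groups correlated positively with the others. This is a hint from the data, weaker within dexamethasone, that the numbers mark something shared. With a replicate block, and also with a replicate block within treatment, C2 against empty vector gave 1 call (Hoxc5) and the other counts stayed within 1.5 times. With the block within treatment and the GC and length trend removed, C2 against empty vector gave 1, C1 against wild type 1, C2 against wild type 2 and dexamethasone without IPTG 6 calls, all 6 lower, while dexamethasone with IPTG gave 0 higher and 15 lower. Depth limits the genes with few counts: Hoxa7, Hoxd3 and the untested members cannot be read below about 3 counts a library.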
